A study of Mus musculus with 6 samples.

Results

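The genes described here are 10 genes used to follow mesenchymal transition, namely the transcription factors *Snai1*, *Snai2*, *Twist1*, *Twist2*, *Zeb1*, *Zeb2* and *Prrx1*, and the products *Fn1*, *Acta2* and *Tagln*. They were taken from the 22911 genes named on a mouse expression array through the RefSeq accession of each probe, and all 10 were on the array, with 18 probes in all. RNA was compared between 3 samples of WT cells and 3 samples of IG27 cells. OS3 is a line of immortalized glial cells that carries SV40, made from the brain of newborn C3H/HeN mice (given as male and C3H in the labels), and both groups carry that immortalization. WT cells are OS3 cells with the empty vector, and IG27 cells are OS3 cells transfected with a plasmid that encodes histone H3.3 with the K27M change found in diffuse gliomas. Both were cultured for 2 days in the same medium with serum, insulin and glucose, so the array reads cultured cells and not a tumor in the brain. Transfected clones were established by drug selection, and the labels do not say whether the IG27 samples come from 1 clone, so the change in the histone and the choice of a clone cannot be told apart. The labels do not say whether the replicates come from separate cultures, so p-values measure the spread between these samples, which may be technical.

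In a mesenchymal transition, cells give up the junctions of an epithelial sheet and gain the cytoskeleton and matrix of motile cells. The zinc finger factors of the Snai and Zeb families and the basic helix-loop-helix factors of the Twist family drive it, in part by binding E-boxes in the promoter of *Cdh1*, the gene of E-cadherin, and shutting it down. Glial cells are not epithelial and express vimentin and N-cadherin from the start, and in glioma the same factors are studied for their link to invasion and to a mesenchymal tumor state.

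Of the 10 genes, 2 rose and 7 fell in IG27 cells compared to WT cells, and *Prrx1* was not called (limma, Benjamini-Hochberg adjusted p under 0.05 over all genes tested). The Snai and Twist pairs split. *Snai1* rose while *Snai2* fell, and *Twist1* rose from an intensity that was not well above background while *Twist2* fell. Both Zeb factors fell, and so did *Fn1* and *Tagln*. The direction of *Acta2* depended on the probe. These counts stand against a wide background, since 70.5% of the 14898 genes tested were called, 30.5% as higher and 40.0% as lower, so a difference between the cells was the rule on this array and the count of 9 of 10 alone sets these genes little apart.

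Each sample was hybridized to 1 single-color Agilent array. Values are normalized log2 intensities, that is log2 of the processed signal minus the 75th percentile of the array, so that 0 is the intensity of a probe at that percentile and 1 unit is a 2-fold change. Each probe has its own affinity, and the level of a probe is therefore compared between samples and not with the level of another probe. On the 5 arrays with complete scanner output, 58.8% to 61.2% of 56605 probes were well above background, and no probe was saturated. The scanner output of IG27 replicate 2 is cut short, and its values come from the deposited value table. Arrays of a group correlated at r = 0.994 to 0.997 and arrays of different groups at 0.902 to 0.905 (Pearson, across the genes tested, each on its brightest probe, which are not independent). The 3 probes of *H3f3a*, the histone gene carried by the plasmid, differed between the groups by -0.26 to 0.17, and whether they read the RNA of the plasmid is not given in the sources used here. The label of glial cell was set against 17 markers of astrocytes and glial progenitors, of which 13 were well above background on every WT array and 15 on every complete IG27 array, with only *Gja1* on none. Of 10 smooth muscle and pericyte markers 6 and 7 were, and of 8 neuron markers 3 and 4, so detection alone does not name the cell. The summed linear normalized intensity of the 17 markers was 337 to 353 in WT cells and 248 to 261 in IG27 cells, with 7 called higher and 6 lower. In such bulk RNA, fewer cells of a kind and less RNA per cell cannot be told apart.

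The Snai factors are zinc finger repressors that bind the E-box CACCTG. *Snai1*, which encodes Snail, gave a normalized log2 intensity of -4.17, -4.38 and -4.37 on the WT arrays, in the order of the replicates, and of -2.84, -3.20 and -3.21 on the IG27 arrays. The groups did not overlap, and all IG27 arrays were higher than all WT arrays. The mean was -4.31 ± 0.12 for WT and -3.08 ± 0.21 for IG27 (SD, n = 3 each), a rise of 1.23 on the log2 scale, or 2.34-fold (standard error 0.12, limma adjusted p = 0.000169). The probe was dim in both groups, and with normexp background correction, on the 5 complete arrays, the rise was 0.58 on the log2 scale and still called (limma adjusted p = 0.00246). Of all genes tested, 18% had a larger change in either direction.

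*Snai2*, which encodes Slug, the close relative of Snail that marks neural crest and many mesenchymal cells, moved the other way. Its normalized log2 intensity was 0.28, 0.06 and 0.26 in WT cells and -2.53, -2.33 and -2.41 in IG27 cells. Every IG27 array lay below every WT array. The fall was 2.63 on the log2 scale, from 0.20 ± 0.12 to -2.42 ± 0.10 (SD, n = 3 each), and amounted to 6.17-fold (standard error 0.09, limma adjusted p = 1.42e-06). A larger change was found in 6.65% of the genes tested. *Snai3*, the third gene of the family, was well above background on 1 WT array and no complete IG27 array and was not tested.

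The Twist factors are basic helix-loop-helix proteins that bind E-boxes as dimers, often with the E proteins encoded by *Tcf3* and *Tcf12*. *Twist1* gave a normalized log2 intensity of -7.95, -7.62 and -8.22 in WT cells, where no array read it well above background, and of -1.74, -1.59 and -1.36 in IG27 cells. It was well above background on both complete IG27 arrays. The means were -7.93 ± 0.30 and -1.56 ± 0.19 (SD, n = 3 each), and the fitted change of 6.37 (standard error 0.17, limma adjusted p = 6.9e-07) rests on WT signals at background. *Twist1* was therefore given as a bound and was at least 18.5-fold higher in IG27 cells. The bound sets the IG27 mean against the mean of, per WT array, the higher of the signal of the probe and the lowest signal among probes well above background. With normexp background correction, on the 5 complete arrays, the fitted change shrank to 2.46 on the log2 scale, which is less than the bound. This and all other bounds were computed on the processed signals and need not hold with another background correction.

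*Twist2*, the paralog of *Twist1*, gave a normalized log2 intensity of 2.95, 2.95 and 2.90 in WT cells and of 1.35, 1.25 and 1.42 in IG27 cells. All IG27 arrays lay below all WT arrays, and the arrays of a group lay close together. The means were 2.93 ± 0.03 and 1.34 ± 0.08 (SD, n = 3 each), a difference of -1.59 on the log2 scale, or 3.01-fold lower in IG27 cells (standard error 0.06, limma adjusted p = 2.34e-06). Expression from the Twist pair was thus measurable in both groups, from *Twist2* alone in WT cells and from both genes in IG27 cells.

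**Figure D1:**
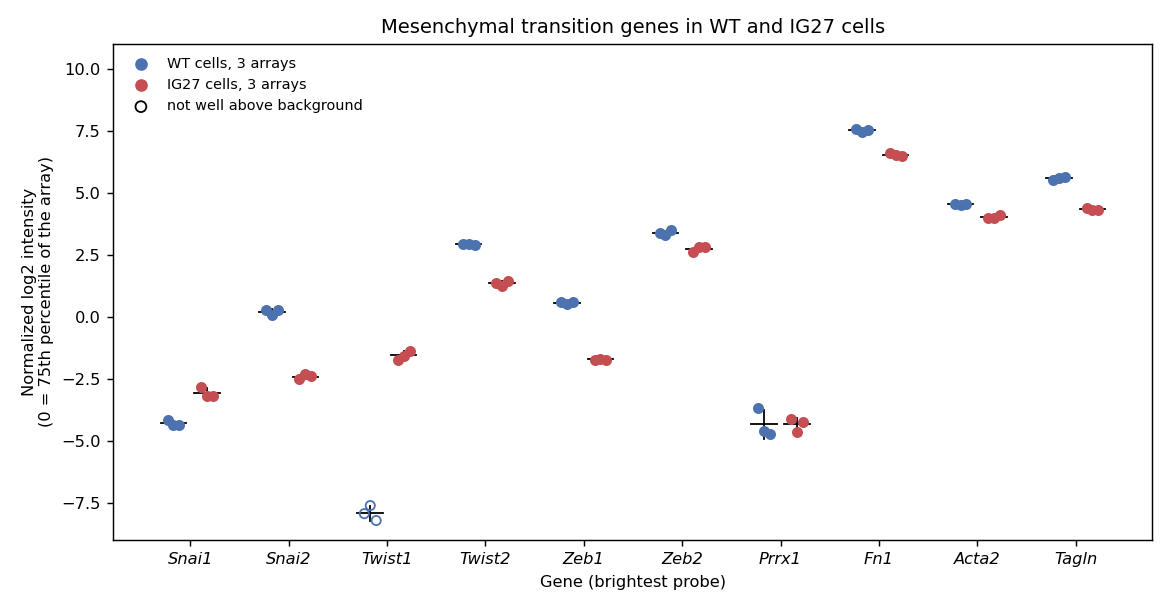
Normalized log2 intensity (y axis, 0 is the 75th percentile of the array) of the brightest probe of each of the 10 genes (x axis) in 3 WT arrays (blue) and 3 IG27 arrays (red); lines mark the mean and 1 SD, and open circles a group with no array well above background. *Snai1* and *Twist1* sit higher in IG27 cells, *Prrx1* overlaps between the groups, and the other 7 genes sit lower in IG27 cells; heights of different genes are not comparable.

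The promoters of the factors that rose, and of the paralog that fell, are shown to place the genes in their sequence. Windows before the start site were used for 6 of the 10 genes (9 windows, from RefSeq), and none for *Snai2*, *Zeb1*, *Fn1* and *Tagln*. The 250 bases before the start of *Snai1*, *Twist1* and *Twist2* are printed 5′ to 3′ on the strand of the gene, in the GRCm38.p6 build. Capitals mark the E-box CACCTG in *Snai1* and, in the Twist genes, the CCAAT box (CCAAT), the TATA box (TATAAA) and the GC box (GGGCGG) on either strand. In *Twist2* the GGGCGG motifs next to each other run together.
*Snai1*, chr2:167537945-167538194, plus strand: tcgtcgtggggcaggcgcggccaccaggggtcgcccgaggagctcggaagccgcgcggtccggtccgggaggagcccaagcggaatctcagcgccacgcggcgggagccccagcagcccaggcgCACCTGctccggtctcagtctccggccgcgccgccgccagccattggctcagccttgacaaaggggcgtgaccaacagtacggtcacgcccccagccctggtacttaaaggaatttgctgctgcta
*Twist1*, chr12:33957421-33957670, plus strand: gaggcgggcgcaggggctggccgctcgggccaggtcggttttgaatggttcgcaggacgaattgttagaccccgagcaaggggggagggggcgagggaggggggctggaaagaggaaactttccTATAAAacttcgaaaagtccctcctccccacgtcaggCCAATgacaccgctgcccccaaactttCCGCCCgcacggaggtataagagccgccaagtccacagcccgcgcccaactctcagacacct
*Twist2*, chr1:91801211-91801460, plus strand: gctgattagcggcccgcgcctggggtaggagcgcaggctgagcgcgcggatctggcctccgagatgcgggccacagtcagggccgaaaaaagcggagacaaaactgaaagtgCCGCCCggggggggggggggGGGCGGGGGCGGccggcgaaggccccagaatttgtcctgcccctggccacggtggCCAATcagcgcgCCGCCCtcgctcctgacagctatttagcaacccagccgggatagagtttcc

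The *Snai1* window held CACCTG, the E-box that Snail itself binds, 126 to 121 bases before the start, and none of the other 8 windows did. That motif was in 17.2% of 32851 mouse windows of this length (both strands), and in 20.2% with 50 bases after the start added. The Twist windows differed in their motifs. *Twist1* held 1 TATAAA, 1 CCAAT and 1 GGGCGG, whereas *Twist2* held no TATAAA, 1 CCAAT and 4 GGGCGG. The TATAAA of *Twist1* lay 126 to 121 bases before the start, and whether it acts as a TATA box was not tested. These motifs were in 12.4%, 33.8% and 32.7% of all windows. The ratio of observed to expected CpG was 0.882 in *Snai1*, 0.74 in *Twist1* and 0.788 in *Twist2*, above the median of 0.373 over all windows. The 3 windows are thus rich in CpG, including that of the gene that fell, and the 4 *Zeb2* windows ranged from 0.347 to 0.675. The matches describe the letters of these windows and no factor's binding was measured.

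The Zeb factors carry a zinc finger cluster at each end and a homeodomain between them, and both fell in IG27 cells. *Zeb1* gave a normalized log2 intensity of 0.59, 0.50 and 0.58 in WT cells and of -1.74, -1.69 and -1.75 in IG27 cells. The groups lay far apart in relation to their spread, with means of 0.56 ± 0.05 and -1.73 ± 0.03 (SD, n = 3 each). The fall was 2.28 on the log2 scale, or 4.87-fold (standard error 0.05, limma adjusted p = 3.04e-07). The other, dimmer probe of *Zeb1* gave a difference of -1.61 (standard error 0.18, limma adjusted p = 0.000436 over all probes). A larger change than that of the brighter probe was found in 8.19% of the genes tested.

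*Zeb2*, which is also a regulator of neural crest and glial development, fell by less. Its signal gave a normalized log2 intensity of 3.37, 3.29 and 3.48 in WT cells and of 2.61, 2.82 and 2.80 in IG27 cells. No IG27 array reached the lowest WT array. The means were 3.38 ± 0.09 and 2.74 ± 0.11 (SD, n = 3 each), and the difference was -0.64 on the log2 scale, or 1.56-fold lower (standard error 0.08, limma adjusted p = 0.000516). The dimmer probes gave -0.70 and -1.09, so all 3 probes of *Zeb2* pointed down. A change of this size was common, since 38.7% of the genes tested had a larger one.

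*Prrx1*, a homeobox gene of limb and craniofacial mesenchyme, showed no detectable difference. The normalized log2 intensity of its brighter probe was -3.67, -4.61 and -4.73 in WT cells and -4.14, -4.64 and -4.26 in IG27 cells. The groups overlapped, and WT replicate 1 was the highest of the 6 arrays. The means were -4.34 ± 0.58 and -4.35 ± 0.26 (SD, n = 3 each), with a difference of -0.01 (standard error 0.30, limma adjusted p = 0.977). Over all alternatives the difference ran from -0.26 to 0.32 and was never called, and the dimmer probe was not well above background on any array. Its paralog *Prrx2*, in contrast, rose by 4.32 on the log2 scale, from -2.72 ± 0.09 to 1.60 ± 0.18 (SD, n = 3 each), or 20-fold (standard error 0.10, limma adjusted p = 4.14e-07), and by 2.55 on its other probe.

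Of the products, *Fn1* encodes fibronectin, the matrix protein that cells grip through integrins. On the brightest probe, the normalized log2 intensity was 7.58, 7.43 and 7.53 in WT cells and 6.60, 6.51 and 6.47 in IG27 cells. The arrays of the groups were apart, with means of 7.52 ± 0.08 and 6.53 ± 0.07 (SD, n = 3 each). *Fn1* fell by 0.99 on the log2 scale, or 1.98-fold (standard error 0.06, limma adjusted p = 2.37e-05). The dimmer probes fell further, by 1.68 and 1.34 on the log2 scale, so the size depends on the probe and the direction does not. *Fn1* RNA stayed well above background on every complete IG27 array.

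*Tagln*, the gene of the actin-binding protein transgelin, or SM22, of smooth muscle, gave a normalized log2 intensity of 5.53, 5.61 and 5.63 in WT cells and of 4.36, 4.32 and 4.30 in IG27 cells. The groups did not overlap. The means were 5.59 ± 0.05 and 4.33 ± 0.03 (SD, n = 3 each), and *Tagln* fell by 1.26 on the log2 scale, or 2.40-fold (standard error 0.05, limma adjusted p = 3.22e-06). It was read by 1 probe.

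*Acta2* encodes alpha smooth muscle actin, the classic marker of myofibroblasts, and its 3 probes disagreed. The brightest probe gave 4.54, 4.50 and 4.55 in WT cells and 3.98, 3.97 and 4.12 in IG27 cells. On this probe the signal fell by 0.51 on the log2 scale, or 1.42-fold (standard error 0.06, limma adjusted p = 0.000354). The next probe gave 4.0, 3.90 and 3.96 in WT cells and 4.33, 4.20 and 4.35 in IG27 cells, a rise of 0.34 (limma adjusted p = 0.0045 over all probes). The dimmest gave -1.03, -1.17 and -1.08 in WT cells and -0.04, 0.06 and 0.08 in IG27 cells, a rise of 1.12 (limma adjusted p = 2.44e-05 over all probes). On each probe the groups did not overlap, and all 3 were well above background on every complete array. The mean of the probes rose by 0.32 (limma adjusted p = 0.00211). No direction can be given for *Acta2* RNA as a whole, and the part of the transcript that each probe reads is not given in the sources used here.

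**Figure D2:**
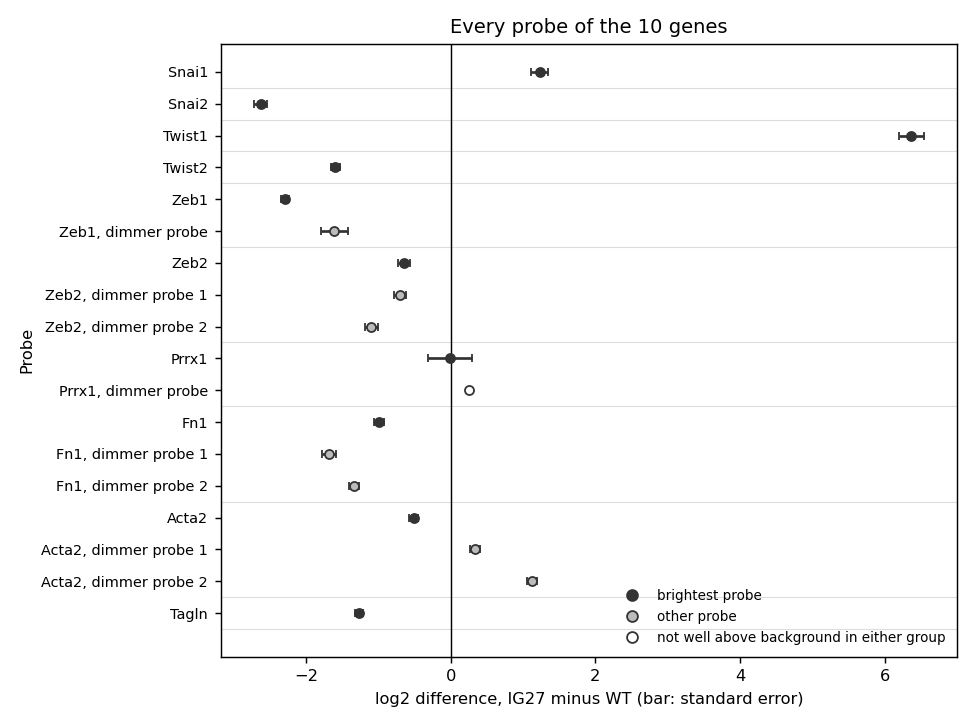
Difference in normalized log2 intensity, IG27 minus WT (x axis, bars are standard errors of the fit), for each of the 18 probes of the 10 genes (y axis); black points are the brightest probe of a gene, grey points its other probes, and the open point a *Prrx1* probe not well above background on any array. The probes of *Zeb1*, *Zeb2* and *Fn1* all lie below 0, whereas those of *Acta2* lie at -0.51, 0.34 and 1.12.

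The promoter of *Acta2* is known for its CArG boxes, the sites of the serum response factor, whose gene *Srf* rose by 0.61 on the log2 scale (standard error 0.05, limma adjusted p = 0.000104). The 250-base window of *Acta2* held no strict CArG box, which 1.47% of all windows hold on either strand. With 1 G or C allowed among the inner letters, a pattern tried because the known *Acta2* elements have this form, the window held CCCTATATGG, 84 to 75 bases before the start, and CCTTGTTTGG, 34 to 25 bases before it. Such a match was in 8.59% of all windows. The rest of the window is not shown, since it overlaps another transcript model. Its CpG ratio was 0.231, below the median of all windows.

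The arrays lay in 2 rows of 1 slide, and the row of all IG27 arrays held only WT replicate 2 of the WT arrays. With the row as a block, the differences were 1.30 for *Snai1*, -2.49 for *Snai2*, 6.06 for *Twist1*, -1.61 for *Twist2*, -2.23 for *Zeb1* and -0.55 for *Zeb2*. They were 0.26 for *Prrx1*, -0.91 for *Fn1*, -0.48 for *Acta2* and -1.29 for *Tagln*. Within that row alone the values were the same, since WT replicate 2 is then the WT group. The same 9 genes were called in the same directions in both fits (limma, adjusted p of at most 0.0163 within the row, where the lone WT array is taken to vary as the IG27 arrays do).

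**Figure D3:**
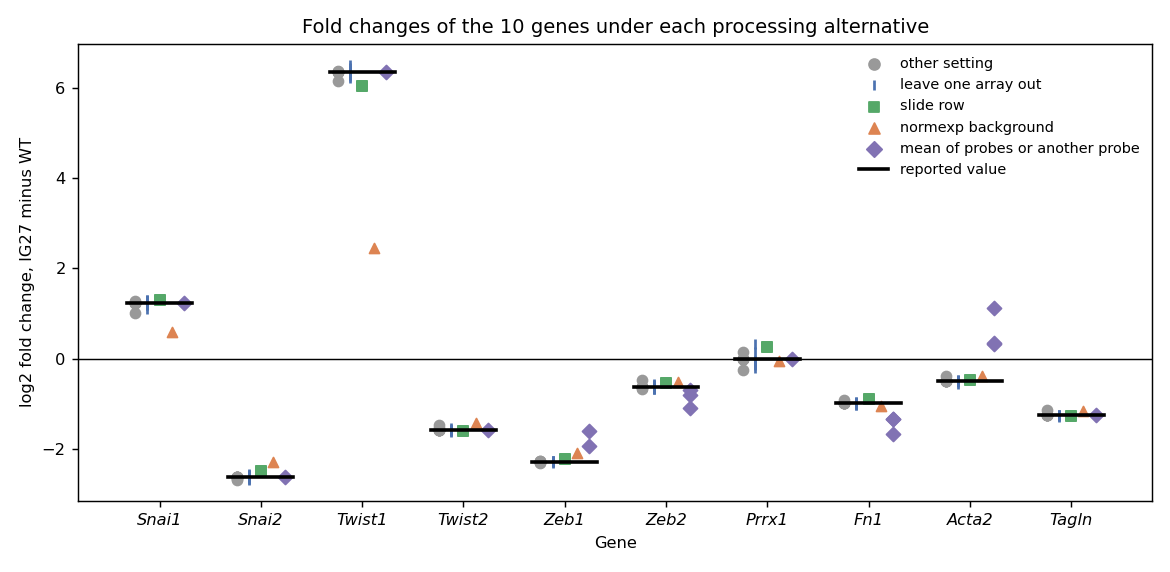
Log2 fold change, IG27 minus WT (y axis), of each of the 10 genes (x axis) as reported (black line) and under each processing alternative (symbols by kind of alternative). Symbols stay on the side of the black line's sign for all genes but *Prrx1* and *Acta2*, and normexp background correction pulls *Twist1* from 6.37 to 2.46 and *Snai1* from 1.23 to 0.58.

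The genes lie on different chromosomes, whose median changes differed. *Tagln* is on chromosome 9, where the median of the 813 genes tested was -0.64, and 14.3% of them had a lower value. *Snai1* and *Zeb2* are on chromosome 2, with a median of -0.34 over 1149 genes. *Snai1* rose against that median, with 94.3% of the genes on its chromosome lower, whereas 32.9% of them were lower than *Zeb2*. The medians for the other members were between -0.03 and 0.18, against -0.07 for all genes. The part of the chromosome-wide shifts in these values was not tested.

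Over the 10 genes the median change was -0.81 on the log2 scale and the median size 1.25, against -0.07 and 0.47 for all genes tested. With *Twist1* at its bound, both values for the 10 genes were the same. At least 2-fold changes were called for 6 of the 10 genes, against 23.1% of all genes. The groups were apart for 9 of the 10, against 75.7% of all genes. Of the 7 transcription factors, 2 rose, 4 fell and *Prrx1* was not called.

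The epithelial genes are a general list of epithelial markers and regulators, including *Cdh1*, which the transition factors shut down. Of 38 such genes on the array 22 could be tested, and IG27 cells were higher in 4 and lower in 11 of them (68.2% called), with a median log2 fold change of -0.35. The share called was near the 70.5% of all genes tested, whose median was -0.07. *Cdh1* itself was not well above background on any array, nor were the keratin genes *Krt8* and *Krt18*, so a change in these genes could not be read. The largest rises by fitted value were in *F11r*, the junctional adhesion molecule, at least 73.8-fold higher, in *Ppl*, the cell envelope protein periplakin, by 7.55 on the log2 scale (standard error 0.13, limma adjusted p = 1.43e-07), and in *Epcam*, at least 15.4-fold higher. No WT array read *F11r* or *Epcam* well above background. The largest fall was in *Cgn*, the tight junction protein cingulin, with a log2 fold change of -2.63 (standard error 0.07, limma adjusted p = 7.76e-07). By fitted value *Krt7* and *Pkp3* came next, but neither was well above background on any complete IG27 array, and their bounds were small, at least 1.93-fold and 1.29-fold lower. The next falls measured in both groups were in the junction gene *Tjp3*, by 1.82 on the log2 scale, and in the mucin gene *Muc1*, by 1.70.

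Other mesenchymal genes split almost evenly. Of 48 on the array, 40 were tested. Of these, 17 were higher and 18 lower (87.5% called, against 70.5% of all genes tested), with a median of 0.03. The matrix gene *Tnc*, encoding tenascin C, was at least 160.5-fold higher in IG27 cells, and the collagen gene *Col6a3* at least 19.3-fold higher, since neither was well above background in WT cells. The other, dimmer probe of *Tnc* gave a bound of at least 13.4-fold, so the size depends on the probe. Over the processing alternatives, the lowest fitted log2 fold change was 5.56 for *Tnc* and 2.50 for *Col6a3*, both less than these bounds. *Fstl1* rose by 5.63 on the log2 scale (standard error 0.08, limma adjusted p = 9.19e-08), and *Serpinh1*, a collagen chaperone, rose by 5.32 (standard error 0.14, limma adjusted p = 5.52e-07), both measured in both groups. In the other direction, *Tgfbi*, a matrix protein induced by TGF-beta, fell by 5.20 on the log2 scale (standard error 0.08, limma adjusted p = 1.29e-07), *Loxl1*, a cross-linker of elastin, fell by 1.97, and *Col6a2* fell by 1.58. On the probes tested, *Col6a3* was thus higher and *Col6a2* lower. The other probe of *Col6a3* was not well above background on any array, so it could not be read. *Vim*, the intermediate filament of glia and mesenchyme, had a difference of -0.15 (standard error 0.06, limma adjusted p = 0.0818), which was called only without IG27 replicate 1 (-0.21, limma adjusted p = 0.0192). *Cdh2*, or N-cadherin, fell by 0.36 on the log2 scale, or 1.28-fold (standard error 0.05, limma adjusted p = 0.000864).

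*Acta2* and *Tagln* are part of a group of smooth muscle and cytoskeletal genes that serum response factor controls. Of 37 other genes of this group, 34 were tested. Of these, 13 were higher and 16 lower (85.3% called, against 70.5% of all genes tested), with a median of -0.08. The largest falls were in *Cnn1*, the gene of calponin, from 7.42 ± 0.05 to 2.72 ± 0.13 (SD, n = 3 each; log2 fold change -4.69, standard error 0.08, limma adjusted p = 1.35e-07), and in *Fhl1* (-2.55) and *Synpo2* (-2.54). The largest rises were in *Mylk*, the myosin light chain kinase, from -0.85 ± 0.09 to 4.60 ± 0.02 (SD, n = 3 each, log2 fold change 5.45, standard error 0.06, limma adjusted p = 6.37e-08), in *Tpm2* (3.83) and in *Ccn2* (2.51). The other, dimmer probe of *Tpm2* was not well above background on any WT array and was at least 29.7-fold higher in IG27 cells. The summed linear normalized intensity of 10 smooth muscle and pericyte markers, which include *Acta2*, *Tagln* and *Cnn1*, was 272 to 286 in WT cells and 73.7 to 74.7 in IG27 cells, with 2 of the 10 called higher and 4 lower. *Cnn1* carried most of that gap, since the sum of the other 9 was 105 to 109 in WT cells and 66.4 to 68.7 in IG27 cells. The pericyte markers *Kcnj8* and *Abcc9* were not well above background on any array. Summed meningeal fibroblast markers, 11 genes that include *Twist1* and *Prrx1*, were 153 to 156 in WT cells and 137 to 144 in IG27 cells. Of the 11, 4 were called higher and 3 lower, and *Lum* was not well above background on any array. Among the other marker lists, the sum of 8 endothelial markers was 0.27 to 0.30 in WT cells and 3.58 to 3.61 in IG27 cells. Of these 8, 3 were called higher and 1 lower. The growth factor receptor genes *Kdr* and *Flt1* were at least 134.8-fold and 39.6-fold higher in IG27 cells. *Cdh5*, *Cldn5*, *Tek* and *Emcn* were not well above background on any array. The sum of 8 neuron markers was 17.6 to 20.0 in WT cells and 9.99 to 11.1 in IG27 cells, with 1 called higher and 2 lower. *Rbfox3* and *Syt1* were not well above background on any array. For 6 oligodendrocyte markers the sum was 14.1 to 15.4 in WT and 17.5 to 18.3 in IG27 cells, with 1 called higher and 1 lower. For 10 microglia markers it was 15.4 to 16.4 and 15.1 to 15.4, with 4 called higher and 2 lower. *Mobp*, *Cx3cr1*, *Ptprc* and *C1qa* were not well above background on any array. For 6 epithelial markers the sum was 0.11 to 0.15 and 0.36 to 0.38, with only *Epcam* called higher and 2 called lower. Sums add probes of unequal affinity and follow their brightest genes. The part of such cells in the results was not tested.

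Relatives and partners of the transition factors were dimer partners, inhibitors, corepressors and regulators of their stability. Of 41 genes, 37 were tested. Of these, 12 were higher and 17 lower (78.4% called, against 70.5% of all genes tested). Their median was -0.17 (-0.09 with *Scrt1*, at background in IG27 cells, set to its bound). *Prrx2* led the rises, followed by *Usp3*, a deubiquitinase (1.30), and *Tgfb1*, a ligand that induces the transition (1.09). *Tgfb2*, the gene of another TGF-beta ligand in the list, fell by 0.97 (standard error 0.06, limma adjusted p = 2.86e-05). The largest falls were in *Id4* (-3.72, standard error 0.07, limma adjusted p = 1.68e-07), *Ajuba*, a LIM protein that acts as a corepressor of Snail (-3.05), and *Id1* (-1.79, standard error 0.06, limma adjusted p = 1.4e-06). Id proteins bind the E proteins without binding DNA and so keep them from factors such as Twist. *Id2* and *Id3* also had negative log2 fold changes, -0.95 and -1.15, so all 4 Id genes fell (the latter pair was picked after its values were seen). The E protein genes *Tcf3* and *Tcf12* were lower by a smaller size, with log2 fold changes of -0.60 and -0.34. Of 3 probes of *Tcf12*, only the brightest was called (the others had differences of -0.12 and -0.44). Its call was lost with the slide row as a block (-0.30, limma adjusted p = 0.0527).

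Fibronectin is read by integrins and bound by other matrix proteins. Of 32 receptors and matrix partners, 25 were tested. Of these, 10 were higher and 12 lower (88.0% called, against 70.5% of all genes tested), with a median of 0.07. Beside *Tnc*, *Itgb3*, the beta chain of the vitronectin receptor, was at least 72.6-fold higher in IG27 cells, with no WT array well above background, and at least 2.89-fold higher on its other, dimmer probe. *Itgb5* rose by 2.50 on the log2 scale. *Itga3*, a laminin receptor chain, fell by 3.14 (standard error 0.05, limma adjusted p = 9.87e-08), *Itga8* fell by 2.23 and *Itgb8* fell by 1.70. The other, dimmer probe of *Itga3* was not well above background on any complete IG27 array and was at least 2.15-fold lower there. Among chains of the main fibronectin receptors, *Itga5* rose by 0.81 on the log2 scale, or 1.76-fold (limma adjusted p = 0.00155). *Itgb1*, its partner, fell by 0.84, or 1.79-fold, and *Itgav* by 0.81, or 1.76-fold (limma adjusted p = 1.9e-05 and 4.63e-05). RNA of fibronectin and of the integrin beta 1 chain was thus lower in IG27 cells, while RNA of the beta 3 and beta 5 chains was higher.

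**Figure D4:**
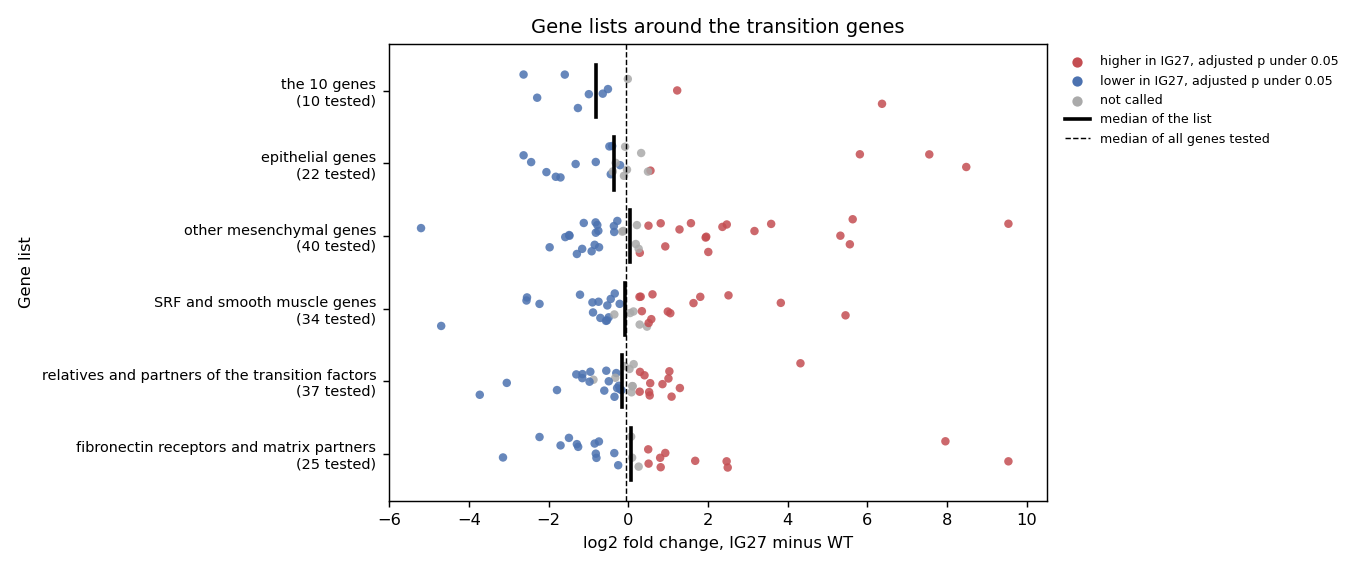
Log2 fold change, IG27 minus WT (x axis), of each tested gene in the 10 genes and in 5 lists of related genes (y axis); red and blue points passed the test as higher or lower in IG27 cells, grey points did not, thick lines are list medians and the dashed line the median of all genes tested. The 10 genes have the lowest median, -0.81, and every list holds genes called in both directions.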

How the data were processed

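Total RNA of 3 WT and 3 IG27 samples was labeled with Cy3 and hybridized to Agilent mouse arrays on 1 slide. The authors scanned the arrays and extracted spot intensities with Feature Extraction (version 9.1 per the labels, 10.7.3.1 per the file headers), and deposited the processed signal, a linear intensity with no scaling between arrays. A deposited table of probe values repeats these intensities. It matched the scanner output for 56305 of 56305 single-spot probes on each complete array (relative tolerance 1e-04), with the columns of WT replicates 2 and 3 exchanged, and the labels of the scanner files were followed. The scanner file of IG27 replicate 2 holds 285 of 62976 spots, so that array came from the table, which matched 255 of 255 single-spot probes and carries no background flags.

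Spots flagged as outliers (107 to 210 per complete array) were left out, and each array's 75th percentile was subtracted after log2. Probes were named by accession with a RefSeq table of GRCm38.p6 (32994 of 56605 probes). Genes were tested on their brightest probe, if the scanner output called it well above background throughout the complete arrays of WT or of IG27 cells. Differences were tested with limma 3.58.1 in R 4.3.3 (lmFit, eBayes, two-sided, no block) at a Benjamini-Hochberg adjusted p under 0.05, over 14898 genes or, for single probes, over all probes tested. The steps were tested on simulated data. The number of arrays limits the precision.

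The 10 genes and the 5 lists of related genes were chosen with earlier results of these data known. In each list, the 3 largest rises and the 3 largest falls by fitted log2 fold change, also for genes at background in a group, among called genes whose groups did not overlap were named, as were *Vim*, *Cdh1*, *Cdh2*, *Snai3* and *Prrx2*. *Id2*, *Id3*, *Tcf3*, *Tcf12*, *Srf*, *Itga5*, *Itgav*, *Itgb1*, *Tjp3*, *Muc1*, *Serpinh1*, *Kdr*, *Flt1*, *Tgfb2* and the genes named as not well above background were picked after their values were seen. Motifs were searched on both strands of RefSeq windows. Alternatives were the 5 complete arrays, the value table, quantile normalization, normexp background correction (offset 50, on median signals, as the files hold no mean signals), other filters, outlier spots kept, other probes, eBayes with trend, an unadjusted p of at most 0.05 (the threshold in the methods), replicate and slide row blocks, and each array left out. The authors' comparisons were not used.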

Additional observations from a re-analysis of the deposited data

How the results depend on the processing

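Under 19 alternatives, 9 of the 10 genes were called in 18, and 8 under the filter that asks for both groups well above background, which leaves *Twist1* untested. Each of the 9 called genes kept its direction and its call wherever it was tested, except *Acta2*, which turned to 0.32 with the mean of its probes and to 0.34 and 1.12 on its other probes. The values of *Snai1* and *Twist1* more than halved on the log2 scale with normexp (0.58 and 2.46). Leaving out 1 array gave 1.11 to 1.30 for *Snai1*, -2.70 to -2.57 for *Snai2*, 6.22 to 6.52 for *Twist1*, -1.63 to -1.55 for *Twist2*, -2.31 to -2.27 for *Zeb1*, -0.68 to -0.57 for *Zeb2*, -0.21 to 0.32 for *Prrx1*, -1.03 to -0.95 for *Fn1*, -0.56 to -0.48 for *Acta2* and -1.29 to -1.24 for *Tagln*. Over all genes the number called ran from 8931 to 10855. In the lists it ran from 12 to 16 (epithelial), 31 to 37 (other mesenchymal), 24 to 31 (smooth muscle), 25 to 31 (relatives and partners) and 19 to 25 (fibronectin receptors and partners). With dim probes kept, the median over all tested genes went from -0.07 to 0.12.

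The replicate numbers did not pair the samples (correlations of 0.01, 0.04 and 0.08 between same-numbered samples). The replicate block called 10309 genes and left the counts for the 10 genes (9) and for the lists (15, 35, 29, 29 and 22) unchanged. Of 846 values of 45 other named genes, *Tgfb2* not among them, 832 kept their direction and side of the threshold, 13 lost the call, 1 gained it and 0 turned direction. Of the lost calls, 11 were those of *H3f3a* and 2 those of *Tcf12*. With normexp, *Tgfb1* went from 1.09 to 0.49, *Synpo2* from -2.54 to -1.44, *Muc1* from -1.70 to -0.92 and *Tcf3* from -0.60 to -0.38, all still called. Low signal limits *Twist1* in WT cells and *Prrx1* in both groups.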
